A study of Mus musculus with 12 samples.

Results

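The miR-34 and miR-449 family was examined in pancreatic islets, the small endocrine organs in which beta cells make insulin. The LP0.5 group comprised 6 islet samples from male C57BL/6 offspring of dams given a low-protein diet during pregnancy, and the Control group 6 samples from male C57BL/6 offspring of dams on a control diet. The labels state no genetic alteration for either group. The offspring were 2 to 3 months old, and in both groups the islets were picked by hand and kept in culture medium overnight before RNA was taken. The comparison addresses whether the maternal diet left a difference in islet microRNA (miRNA) levels in the adult offspring. Family members were chosen by name, as every TaqMan real-time PCR assay row called miR-34a, miR-34b, miR-34c, miR-449a or miR-449b once the species prefix and arm were removed, with starred minor strands (marked #) left out. This gave 7 of the 750 miRNA rows on the panel, which carry 4 of the 5 names, since no row is called miR-449a.

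The authors' deposited table holds 1 linear ratio per row, headed as L.05 against Control, so a value above 1 stands for a higher level in LP0.5 islets by that heading. No values of single samples were used here, because the 12 columns that hold them carry names that match no sample label. No ratio therefore has a replicate error, a test or a p-value, and whether any of them differs from 1 beyond the spread between samples is not known. The direction rests on the heading alone: the study is known for reporting miR-199a-3p as raised after the low-protein diet, while the authors' deposited table lists it at 0.422. Its log2 ratio is -1.24, and the set references tried here shifted the A set, which holds it, by -0.20 to 0.03. The reference behind the reported rise is not given in the sources used. Its part in the disagreement was not tested, and the direction is not settled. With the heading turned, every ratio is replaced by its inverse and every high rank by a low one. In bulk islet RNA, fewer cells of a type and less RNA per cell cannot be told apart either.

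MiRNAs of this family are loaded into Argonaute proteins and repress messenger RNAs that pair with their seed, the bases 2 to 8 of the mature strand. MiR-34a, miR-34b and miR-34c are direct transcriptional targets of the tumour suppressor p53 and restrain the cell cycle and survival, with BCL2, MET, CDK6 and SIRT1 among their known targets. In beta cells miR-34a has been linked to impaired insulin secretion and cell death after exposure to fatty acids or cytokines. MiR-34b, miR-34c and the miR-449 genes are best known from multiciliated cells of the airway and reproductive tract and from testis, where they act redundantly, and miR-34a is the more widely expressed member.

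The mature mouse sequences are shown because they decide which members can share targets, and so which ratios bear on the same set of targets. They are from RefSeq on build GRCm38.p6. The table used here matched miR-34a, both arms of miR-34b and, as relatives, the other arm of miR-34c and the strands of miR-449a and miR-449c. The major arm of miR-34c and miR-449b are named only. Seed bases are in capitals, and each line runs 5′ to 3′.

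miR-34a-5p, chr4:150068473-150068494, plus strand: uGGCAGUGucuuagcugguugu
miR-34b-5p, chr9:51103610-51103632, minus strand: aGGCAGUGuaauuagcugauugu
miR-449a-5p, chr13:113037549-113037570, plus strand: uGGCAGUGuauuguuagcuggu
miR-449c-5p, chr13:113036008-113036028, plus strand: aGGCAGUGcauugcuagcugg
miR-34a-3p, chr4:150068517-150068537, plus strand: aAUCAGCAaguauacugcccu
miR-34b-3p, chr9:51103574-51103595, minus strand: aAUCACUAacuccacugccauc
miR-34c-3p, chr9:51103044-51103065, minus strand: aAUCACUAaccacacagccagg

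The 4 printed 5p strands carry 1 seed, GGCAGUG. No other of the 1679 distinct mouse mature miRNA names of the table holds it (0.238% of them do). Neither the major arm of miR-34c nor miR-449b has a sequence there, so whether these members carry the seed was not tested. Beyond the seed the 4 printed strands differ. Position by position from the 5′ end, with no gap allowed, miR-34a-5p and miR-449a-5p are identical at 15 of 22 bases. MiR-449a-5p and miR-449c-5p are identical at 18 of 21, and miR-34a-5p and miR-34b-5p at 11 of 22. The last count understates the likeness, since both strands hold uuagcug but 1 base out of step. These counts therefore do not rank the pairs. The 3p strands of miR-34b and miR-34c share a second seed, AUCACUA, held by those 2 names alone (0.119%), and are identical at 17 of 22 bases, while miR-34a-3p has a seed of its own. The seed thus splits the panel's miR-34b rows: a 5p row belongs with miR-34a, and the 3p row belongs with the starred strand of miR-34c.

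By gene, the family sits in 3 places. Mir34a stands alone on chromosome 4. Mir34c and Mir34b lie 451 bases apart on chromosome 9, within the span of Btg4, and Mir449c, Mir449b and Mir449a lie on chromosome 13 within the span of Cdc20b, a gene of the same multiciliated programme. Exons and introns were not examined here. RefSeq lists the older name mmu-mir-449 as Mir449a, and the older symbol Mirn449b under both Mir449b and Mir449c. The panel's unlettered miR-449 row, named for human, therefore corresponds by name to miR-449a, and which of the genes the panel's miR-449b rows stand for is not settled by name. The unlettered row falls outside the naming rule and is given below beside the members, as is the starred strand of miR-34c.

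Among the 6 member rows with a ratio, 3 were listed near 1, 1 below 1 and 2 far from 1 on opposite sides. Over all 566 miRNA rows with a ratio the median was 1.01 and the interquartile range 0.792 to 1.27. At least 1.5-fold above 1 was 1 member row of 6, against 18.6% of all miRNA rows, and at least 1.5-fold below 1 was 1 member row of 6, against 16.8%. In either direction this was 2 of 6 against 35.3% (200 of 566). Relative to the snoRNA135, snoRNA202, U87 and Y1 controls of the set it was 3 of 6 against 39.0% (221 of 566). The seventh member row, the second of the miR-449b assays, was listed without a ratio, as were 184 of the 750 miRNA rows (24.5%).

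**Figure D1:**
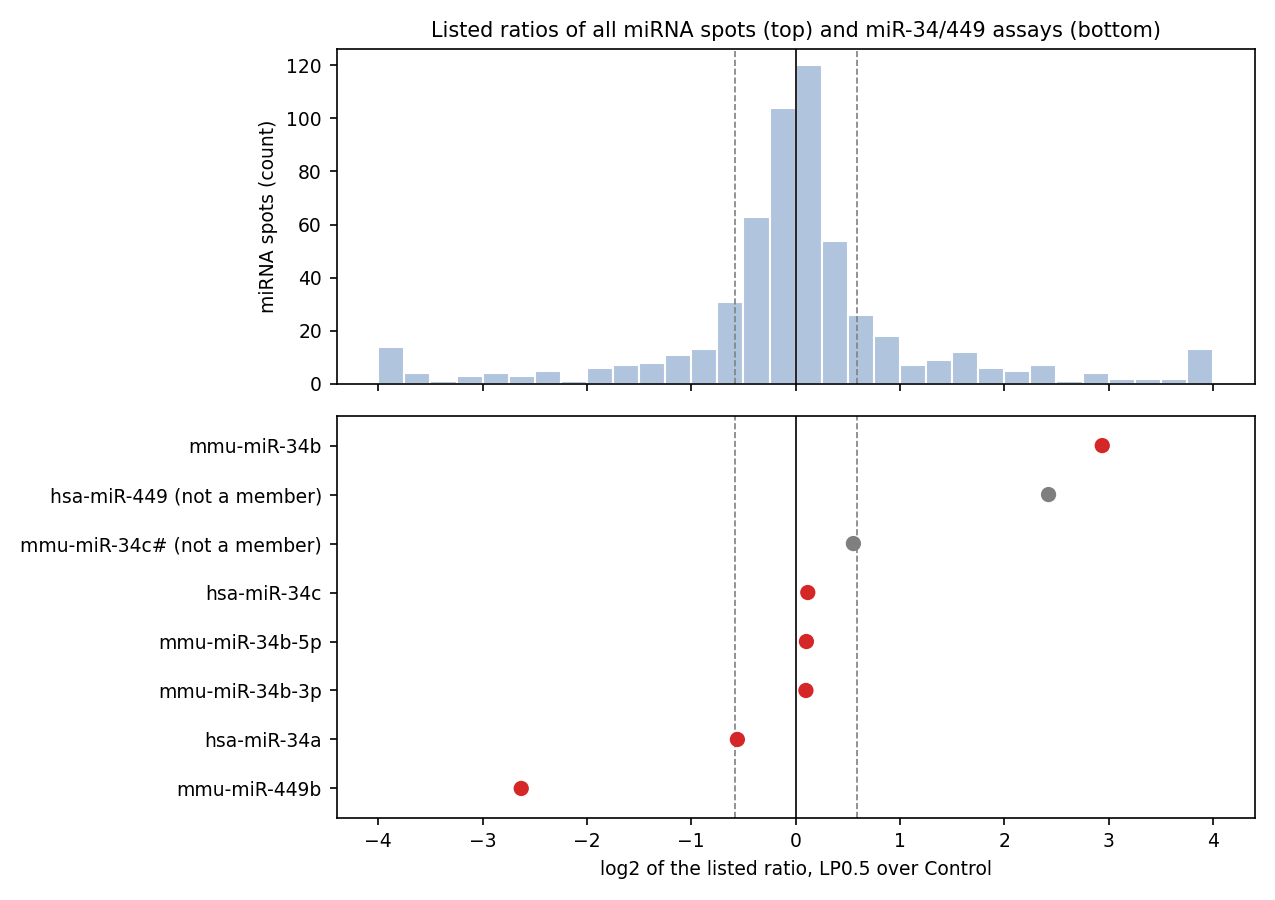
The upper panel is a histogram of the log2 ratio, LP0.5 over Control, of the 566 miRNA rows with a listed ratio (y axis, count of spots; 14 values below -4 and 11 above 4 are counted in the end bars). The lower panel shows each miR-34 or miR-449 row on the same axis, members in red and related rows in gray, with dashed lines at 1.5-fold; miR-34c and both arms of miR-34b stand in the tall centre of the histogram, and the arm-less miR-34b row and miR-449b in its tails.

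MiR-34a, the most widely expressed member, was the one listed moderately below 1. The authors' deposited table gives it a ratio of 0.679, which is 1.47-fold below 1 and just inside the 1.5-fold limit. Of the 566 miRNA rows, 208 (36.7%) were listed at least as far from 1 in either direction, so a departure of this size was common on the panel. In its own block of the panel, block C1, the 5 small RNA controls were listed from 0.961 (U6) to 1.30 (snoRNA135) in the authors' deposited table, and the median of the 42 miRNA rows was 1.02. MiR-34a thus lay below every control of its block. The listed ratios were taken to be relative to U6, because its spots average 1 in each assay set. The sources used do not state the normalization. Relative to the snoRNA135, snoRNA202, U87 and Y1 controls of the set in its place, miR-34a came to 0.592 and passed the 1.5-fold limit. Over the 5 other references it ran from 0.592 to 0.706, below 1 under each.

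MiR-34b and miR-34c, neighbours on chromosome 9, were listed almost alike where the assay name gives the arm or, for miR-34c, a single main row. In the authors' deposited table miR-34b-5p was listed at 1.07, miR-34b-3p at 1.07 and miR-34c at 1.08. Most of the panel was at least as far from 1 as these rows, namely 473 of the 566 miRNA rows for miR-34b-5p, 477 for miR-34b-3p and 459 for miR-34c, each count including the row itself. They lie inside the range of the 5 small RNA controls of their own blocks, which was 0.883 to 1.13 for miR-34b-5p, 1.02 to 1.27 for miR-34b-3p and 0.977 to 1.43 for miR-34c. The side of 1 is not settled for any of them. Relative to the other 4 controls of the set the ratios were 0.989 for miR-34b-5p, 0.934 for miR-34b-3p and 0.946 for miR-34c, each just below 1.

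The hairpin of miR-34b is printed to show the strands that the arm-specific assays name, with both mature strands in capitals, the 5p strand first (RefSeq, GRCm38.p6, chr9:51103562-51103645, minus strand).

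Mir34b hairpin: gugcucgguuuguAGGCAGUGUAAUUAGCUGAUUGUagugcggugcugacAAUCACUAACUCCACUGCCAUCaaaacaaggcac

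The arms of this hairpin were read in different assay sets, 3p in the A set and 5p in the B set, and their ratios differed by 1.003-fold. Among 15 miRNA names with a 5p and a 3p row of the same species prefix, the median difference between arms was 1.18-fold and the highest 8.75-fold, and miR-34b had the smallest. That rank was looked up after the values were seen and has no test.

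A further row of the same name stood far away. The authors' deposited table gives the assay called mmu-miR-34b, with no arm in its name, a ratio of 7.67, and 20 of the 566 miRNA rows were listed as high or higher (with the heading turned it is 0.130, with the same 20 rows as low or lower). It is 7.16-fold above the lowest of the miR-34b rows. Of 73 names with 2 or more listed rows, arms pooled, 7 including miR-34b were this far apart or farther, and 37 of the 73 lay more than 1.5-fold apart. In its block, D4, the authors' deposited table lists U6 at 0.995, snoRNA202 at 1.03, U87 at 1.10, snoRNA135 at 1.21 and Y1 at 1.61. The plant assay ath-miR159a, which has no mouse target, had a ratio of 2.87 in that block in the authors' deposited table, and from 2.59 to 3.37 at all 8 of its B set spots. The miR-34b row was thus above every control of its block, including the assay without a mouse target, and the part of background amplification in its ratio was not tested. Relative to the other references the row ran from 6.29 to 7.71.

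The starred strand of miR-34c, read in the same block, carries the AUCACUA seed of miR-34b-3p. The authors' deposited table lists it at 1.47, inside the range of the D4 controls, which reached 1.61 with Y1. It was not as far from 1 as the 1.5-fold limit, whereas its partner strand miR-34c has a ratio of 1.08 in the authors' deposited table.

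**Figure D2:**
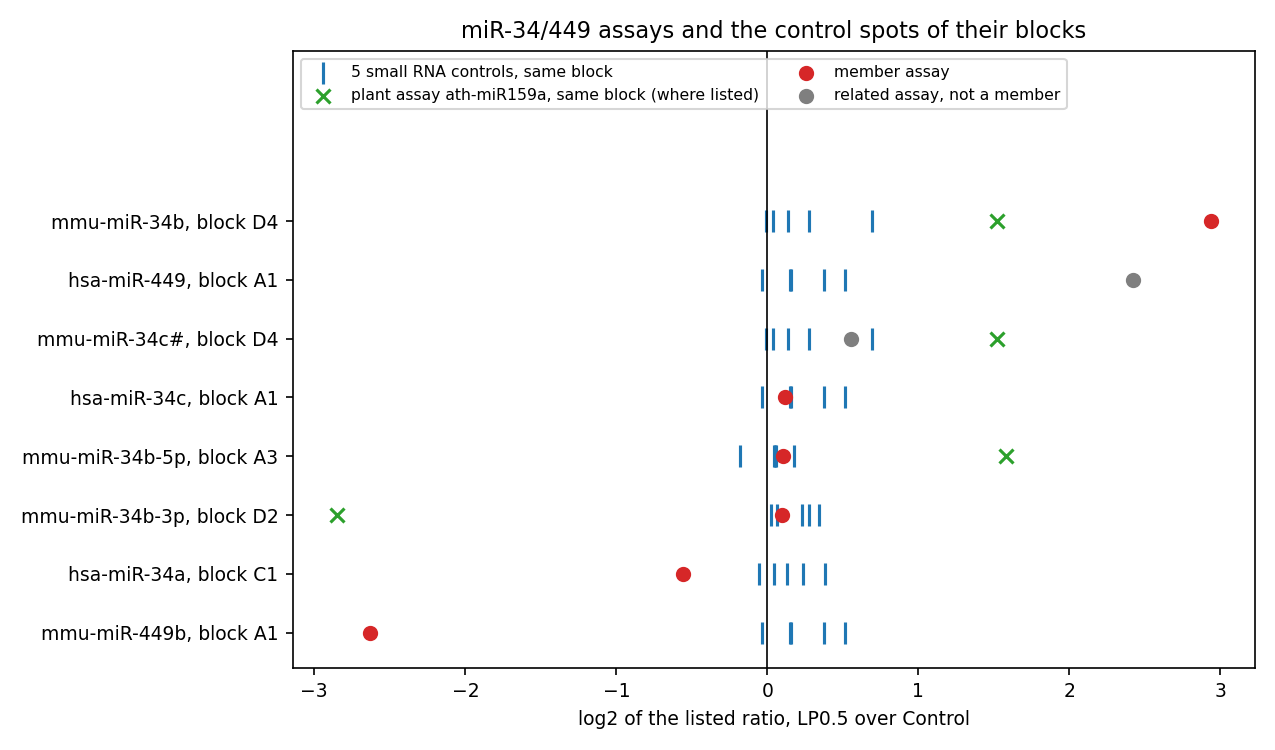
Each row shows 1 assay of the family (red, member; gray, related) on the log2 ratio axis, LP0.5 over Control, with the 5 small RNA controls of its own block as blue bars and the plant assay, where listed, as a green cross. MiR-34c, miR-34b-5p, miR-34b-3p and the starred miR-34c strand fall within their controls, whereas miR-34a and miR-449b lie below and the miR-34b and miR-449 rows above them.

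The miR-449 rows were listed far from 1 in opposite directions. The authors' deposited table gives the miR-449b row with a ratio 0.162, which is 6.19-fold below 1, and 29 of the 566 miRNA rows were as low or lower. For the unlettered miR-449 row, by name miR-449a, the authors' deposited table gives 5.37, with 27 rows as high or higher. With the heading turned these ratios are 6.19 for miR-449b and 0.186 for miR-449. Both were read in block A1, whose 5 controls ran from 0.977 to 1.43, and they differ by 33.2-fold between them. In the A set, to which this block belongs, the plant assay without a mouse target had a ratio at 2 of 8 spots, 0.139 and 1.96 in the authors' deposited table, and none in block A1. The lower of these is below the miR-449b ratio. MiR-34c was read in that block as well, with a ratio of 1.08 in the authors' deposited table. The other miR-449b assay, in block B4, has no listed ratio, so the low value has no second reading. Ratios at least 4-fold from 1 were listed for 71 of the 566 rows (12.5%) of the panel. The levels behind them were not analysed here, and whether these assays were detected in every sample was not tested.

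**Figure D3:**
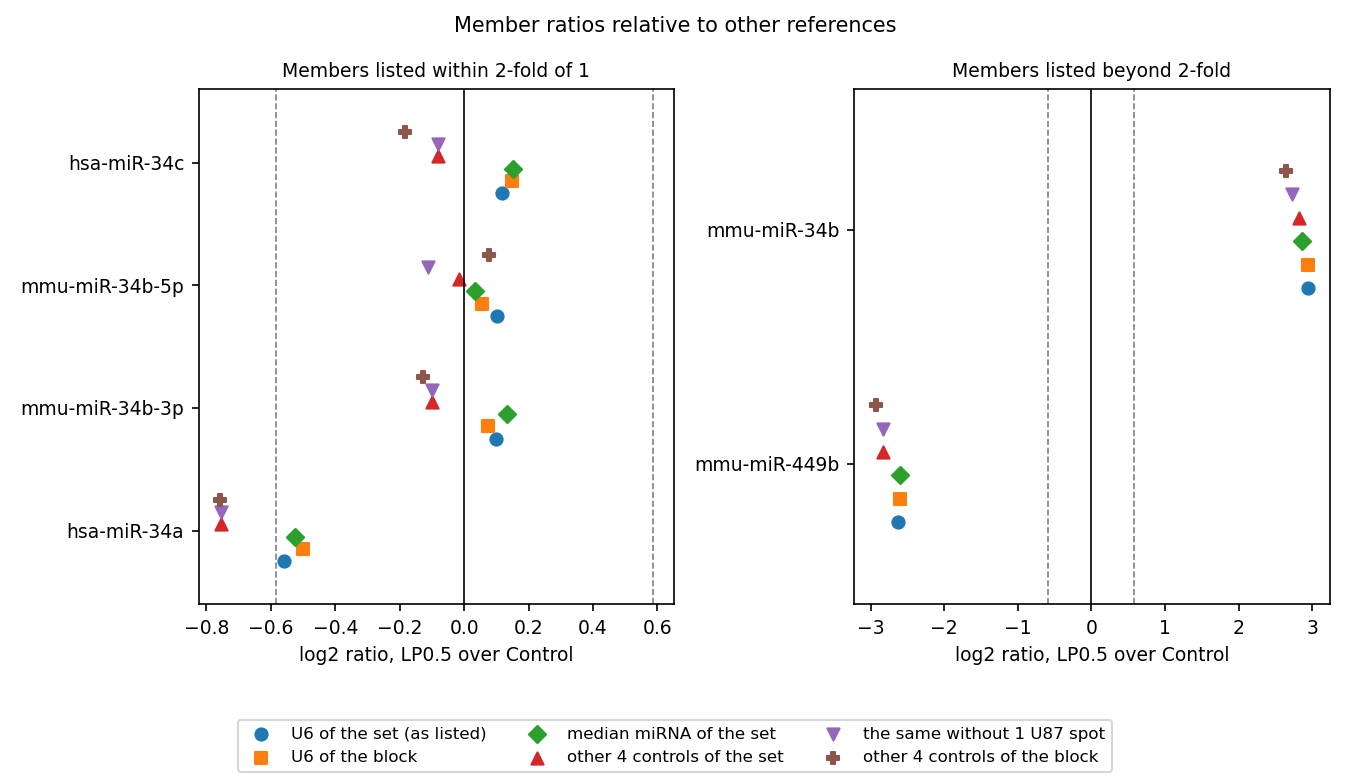
Log2 ratios, LP0.5 over Control, of the 6 members with a ratio, with dashed lines at 1.5-fold. Symbols mark the ratios as listed, taken to be relative to U6 of the set, and those relative to 5 other references. MiR-34a passes the lower line with the 3 references that use snoRNA135, snoRNA202, U87 and Y1 (0.592 relative to those of the set), the rows near 1 change side, and miR-34b and miR-449b stay on theirs.

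Taken by name, with the rows of 1 name averaged on the log2 scale, the 4 member names had a median log2 ratio of -0.22. Taken row by row, the 6 listed rows had a median log2 ratio of 0.10. The sign of the family's median thus depends on how the miR-34b rows enter, and no common direction of the family was seen.

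Other miRNAs tied to p53 were spread on both sides of 1. All 12 names had a ratio, and 5 ratios exceeded 1, beside 50.9% of all miRNA rows. Rows of 1 name were averaged on the log2 scale for this list and the next, whereas the panel shares count single rows. At least 1.5-fold above was 1 name and at least 1.5-fold below were 3, beside 18.6% and 16.8% of all miRNA rows, and the median ratio was 0.909 beside 1.01 over all miRNA rows. Relative to the other 4 controls of the set, 3 exceeded 1 and 9 did not, and the median was 0.815. At least 1.5-fold above was 1 name and below were 4, with miR-141 at 0.649 added. Under that reference 39.0% of all miRNA rows were at least 1.5-fold from 1 in either direction. It shifts every log2 ratio by -0.20 (set A) or -0.12 (set B), and the panel's median and share below 1 under it were not computed. The authors' deposited table lists miR-215 at 0.160 and miR-194 at 0.653, both past the limit. MiR-192, which shares its seed with miR-215, has 0.895 in the authors' deposited table. MiR-145 has a ratio of 2.66 in the authors' deposited table. MiR-143, its cluster partner, passed the limit as an average (0.459) although its assays disagree, with ratios of 0.190 and 1.11 in the authors' deposited table. MiR-107, miR-103, miR-15a, miR-16, miR-200c, miR-141 and miR-22, which include cell cycle and epithelial regulators, lay within 1.5-fold of 1 as listed.

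The miRNAs that, like miR-34a, are raised in beta cells by cytokines or fatty acids were all close to 1. None of the 6 names was at least 1.5-fold from 1, beside 35.3% of all miRNA rows. As listed, 5 were below 1 and 1 above, while 50.9% of all miRNA rows were above 1. With the snoRNA, U87 and Y1 reference all 6 were below 1. That reference shifts every log2 ratio by -0.20 (set A) or -0.12 (set B), and the panel's share below 1 under it was not counted. In the authors' deposited table miR-21 was listed at 0.822, miR-146a at 0.842, miR-29b at 0.787 and miR-29a at 1.04. MiR-34a, at 0.679 in the authors' deposited table, was lower than each of the 6, and with the heading turned, at 1.47, it is higher than each.

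**Figure D4:**
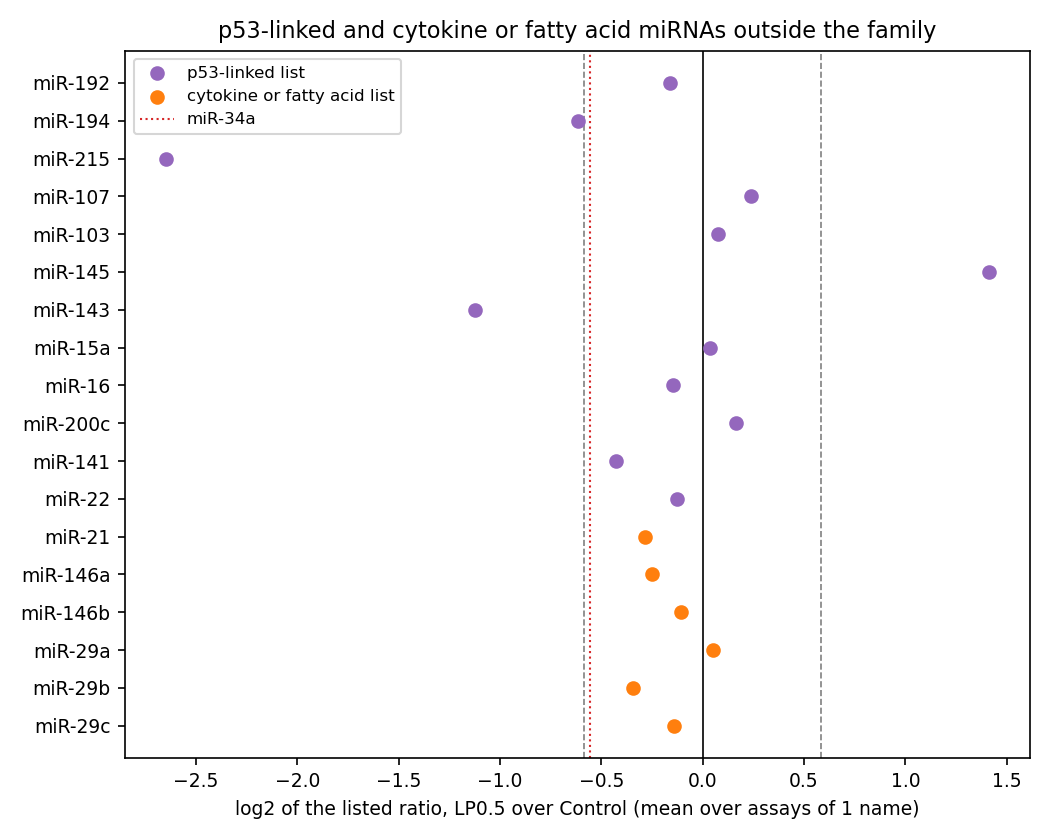
Log2 ratio, LP0.5 over Control, of 12 p53-linked miRNAs (purple) and 6 miRNAs raised by cytokines or fatty acids in beta cells (orange), each the mean over assays of 1 name, with dashed lines at 1.5-fold and a dotted line at miR-34a. The orange points lie between 0.787 and 1.04 as ratios, whereas miR-215 and miR-145 mark the ends of the purple ones.

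Markers of the cells in the preparation could be judged only by ratio. In the authors' deposited table the islet miRNA miR-375 was listed at 1.17 and miR-7 at 0.918. The 3 acinar markers ran from 0.726 to 1.32, the upper end being the average of miR-217 assays that disagree, with 0.950 and 1.83 in the authors' deposited table. The 3 blood markers ran from 0.620 to 1.21, and the lowest, the red cell miR-451, was more than 1.5-fold below 1. The endothelial miR-126 has a ratio of 0.975 in the authors' deposited table. The 3 stellate or fibroblast markers ran from 0.422 to 2.66, with miR-199a-3p and miR-143 below the limit and miR-145 above it. MiR-143 is an average of assays that disagree, with 0.190 and 1.11 in the authors' deposited table. Over the panel, 35.3% of all miRNA rows were at least 1.5-fold from 1 in either direction. No miRNA outside the family was chosen as a marker of multiciliated cells, so none was examined. The part of cell content in the family's ratios was not tested.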

How the data were processed

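Total RNA of the islet samples was measured with FAM-labelled TaqMan probes, per the labels' protocols. The authors deposited 1 linear ratio (fold value) per spot for 846 spots in 16 blocks, per the file headers, and a table that pairs each spot with its assay and small RNA name. Limma is named in the submitters' processing notes. The sources used here do not give the normalization, detection limit or averaging. The 12 columns of per-sample values in the second table match no sample label and were not used, so the planned limma tests were not run; no depth or threshold cycle was analysed.

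Blocks were split into an A and a B set of 8 blocks each by the spot code. The log2 ratios of the U6 spots average 0 in each set, from the values. Ratios were taken to log2, and a fold limit of 1.5 was used for counts. Named miRNAs are all rows of the family rule, the starred strands and relatives on the panel, and the p53, cytokine or fatty acid and marker lists, with those past the limit named; the other names were chosen after their values were seen. MiR-7a is read by a row named miR-7 and miR-126-3p by a row named miR-126. Members and lists were chosen with earlier results of these data known. Sequences are from RefSeq tables of GRCm38.p6; no build is named for the files. The counting and rescaling steps were tested on simulated data. Python 3.11.15, numpy 2.4.6, pandas 2.3.3 and matplotlib 3.10.9 were used.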

Additional observations from a re-analysis of the deposited data

How the results depend on the processing

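No paired analysis was possible because no per-sample column could be matched to a sample label; for the same reason no replicate was left out. MiR-449c is named by no row of the panel, so adding it was not run. References taken from 1 block, the set reference without 1 outlying U87 spot and the unlettered miR-449 row were chosen after seeing the data. The median log2 ratio of the 4 member names, -0.22 as listed, moved by more than the mean SD of control spots (0.227) to 0.10 with each row as 1 value, to -0.51 as a mean, to 0.12 with the starred strand or with the miR-449 row added, and to -0.47 relative to the snoRNA, U87 and Y1 spots of the block. That block reference also moved miR-34c to -0.18, miR-34b to 2.65 and miR-449b to -2.93 on the log2 scale. Member rows at least 1.5-fold below 1 were 2 in place of 1 with the snoRNA, U87 and Y1 spots of the set, with or without the U87 spot, and of the block, through miR-34a; rows above were 2 in place of 1 with miR-449 added. The other 31 values and 12 counts under other settings moved less. The limit of 0.227 is raised by U87 in set B, whose spots had an SD of 1.05, while the SDs of the other controls were at most 0.323. With a stricter limit, more values would count as moved. The set reference shifts every log2 ratio by -0.20 (set A) or -0.12 (set B). The lack of replicate values limits the precision.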
